A study of Homo sapiens with 2 samples.

Results

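The genes described are 44 receptor tyrosine kinases, taken from the 33629 genes named in the deposited tables of LM3, a human hepatocellular carcinoma line. The rule that picks them uses gene names, as receptors of known families, and no measured value. The members were nonetheless chosen with earlier results of these data known. There are 2 poly-A RNA libraries, 1 of wild-type cells and 1 of cells with the labelled genotype NCOA5 knockout. The product of NCOA5 is a nuclear receptor coregulator. The labels name no treatment and do not say whether the knockout cells are a clone. The knockout library did not hold less NCOA5 in total (20.03 FPKM in wild type, 25.4 FPKM in the other), so it is called knockout-labelled throughout.

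Receptor tyrosine kinases are cell-surface proteins that bind a growth factor, a membrane-bound ephrin or collagen outside the cell and carry a tyrosine kinase inside it. Ligand binding brings receptors together, their tails become phosphorylated, and adaptors such as GRB2 and SHC1 connect them to RAS, MAP kinase and PI3 kinase signalling. In liver, MET and EGFR are known for their part in hepatocyte growth and regeneration, and FGFR4 for its part in the control of bile acid synthesis.

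FPKM is fragments per kilobase of transcript, scaled to the size of the library, a level corrected for length, so levels of different genes can be set beside each other. The authors' tables give an FPKM for each transcript start, transcript end and splicing event. A gene's level was taken as the larger of its summed starts and its summed ends, and a gene counted as measured at 1 FPKM or more in either library. Ratios are differences of log2(FPKM + 1), knockout-labelled minus wild type, which understates the change of low genes. Sequencing depth and counting error are unknown because the tables hold no counts. With 1 library per genotype no difference has a replicate check or a test, and each is a comparison of libraries, not of genotypes.

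At 1 FPKM or more there were 10414 genes in wild type and 10350 in knockout-labelled. The labels call the cells hepatocellular carcinoma cells from liver. Of 8 hepatocyte markers 4 were measured, none above 15.4 FPKM. In wild type and knockout-labelled, ALB was 1.41 and 2.92 FPKM, AFP 8.80 and 6.48 FPKM, TF 10.7 and 15.4 FPKM, and FGB 1.37 and 4.73 FPKM. FGB was higher by 2-fold or more, with a log2 ratio of 1.27, and the median log2 ratio of the 4 was 0.59. The hepatocyte products APOA1, APOB, TTR and SERPINA1 were under 1 FPKM in both libraries.

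Of the 33629 genes named, 10826 were measured, at 1 FPKM or more in either library. Of the 44 receptors 17 were measured, 16 of them at 1 FPKM or more in both libraries and 8 at 10 FPKM or more in both. They came from 7 groups of receptors: 5 of 10 Eph receptors, all 3 TAM receptors, 2 of 4 EGF receptors, 2 of 4 FGF receptors, 1 of 2 HGF-family receptors, 1 of 5 VEGF and angiopoietin receptors and 1 of 2 collagen receptors, with LMTK2 and MUSK as the other two. None of the 4 PDGF-family receptors and none of the 3 neurotrophin and GDNF receptors was measured. Chromosome 7 carries 6 members, of which 5 were measured: EGFR, MET, EPHB4, EPHB6 and LMTK2. Chromosome 1 also carries 6, of which 2 were measured. The share of all genes measured on each chromosome was not computed. MUSK was the measured receptor with the lowest larger value (1.25 FPKM in wild type and 0.905 FPKM in knockout-labelled). MST1R lay just outside the limit, at 0.674 and 0.430 FPKM.

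**Figure D1:**
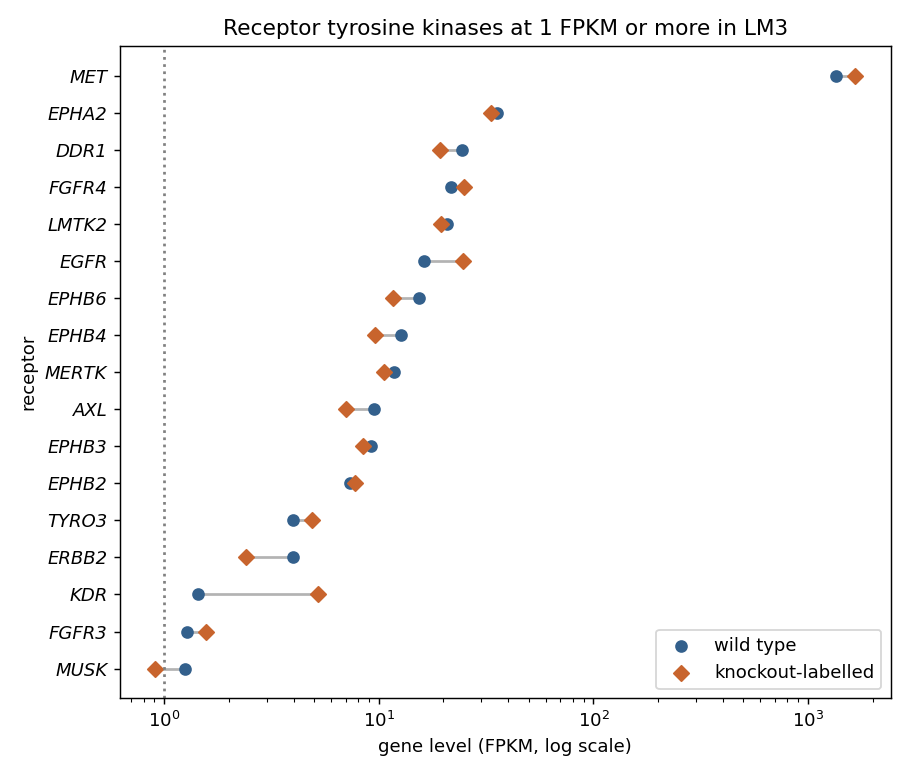
Level of each measured receptor (FPKM, log axis) in the wild-type library and in the knockout-labelled library, 1 point per library, with no error bars because there are no replicates. MET lies near 1355 and 1663 FPKM, far above the other 16 receptors, none of which exceeds 35.4 FPKM.

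MET, the receptor for hepatocyte growth factor, dominated the set. It lies on chromosome 7 from 116672390 to 116798386 (hg38, plus strand), and its level was 1355 FPKM in wild type and 1663 FPKM in knockout-labelled. These levels put MET at rank 30 and rank 22 among the genes at 1 FPKM or more. It stood 38.3 times above the next receptor, EPHA2, in wild type and 49.8 times above it in knockout-labelled. MET supplied 87.3% of the FPKM summed over the 44 receptors in wild type and 89.6% in knockout-labelled. Its log2 ratio was 0.29, and its start and end events held the same value within each library. MST1R, the relative of MET that binds macrophage-stimulating protein, was under 1 FPKM in both. The ligand HGF, which mesenchymal cells of liver normally supply, was 0.164 FPKM in wild type and 0.122 FPKM in knockout-labelled, and MST1, the ligand of MST1R, was listed at 0 in both.

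Several genes before MET on chromosome 7 were also at high levels, and others there were low. The neighbours were chosen after their values were seen. Within 2 Mb of MET lie 14 other protein-coding genes, of which 6 were under 1 FPKM in both libraries. Of the 14, 4 were at 100 FPKM or more in both. The share among all measured genes was 6.54%, on a base that leaves out genes under 1 FPKM in both. All 4 lie on the lower-coordinate side: the caveolin genes CAV1 (1521 and 1510.1 FPKM) and CAV2 (999 and 1308 FPKM), TES (501 and 416 FPKM) and MDFIC (112 and 149.7 FPKM). On the same side TFEC, which lies between TES and MDFIC, was 3.64 and 3.69 FPKM, and FOXP2 was under 1 FPKM in both. On the other side, CAPZA2, an actin capping subunit that begins 12.7 kb after the end of MET, was 63.5 FPKM in wild type and 45.0 FPKM in knockout-labelled. The next gene, ST7, was 8.24 and 11.5 FPKM. Across all genes 44 reached 1000 FPKM in both libraries.

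**Figure D2:**
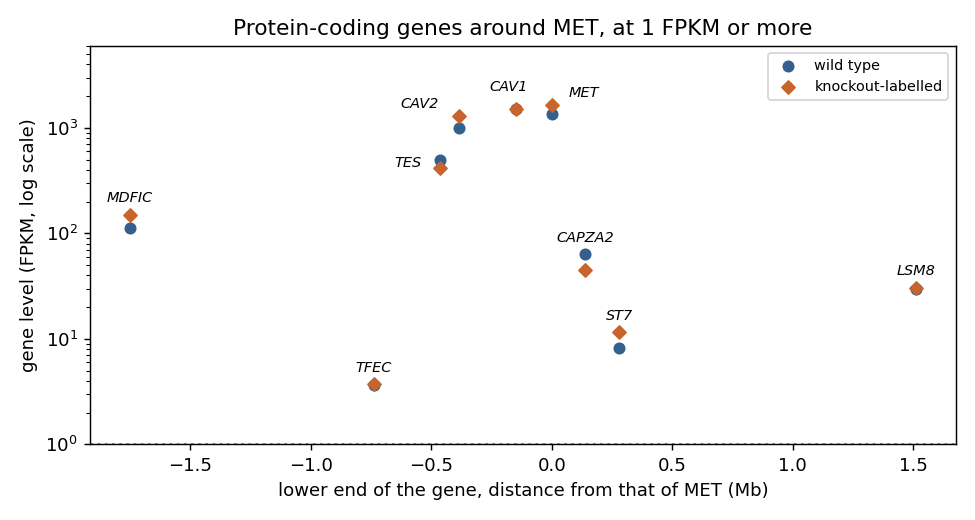
Level (FPKM, log axis) of MET and of the protein-coding genes within 2 Mb of it that reached 1 FPKM, plotted against the distance of each gene's lower end from that of MET. TES, CAV2 and CAV1 lie before MET at 416 FPKM or more, and no gene after MET exceeds 63.5 FPKM.

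In the EGF receptor family EGFR and ERBB2 were measured, with log2 ratios of opposite sign and both under 2-fold. EGFR, which binds EGF, TGFA and related ligands, was 16.3 FPKM in wild type and 24.7 FPKM in knockout-labelled, a log2 ratio of 0.57. ERBB2, the family member with no known ligand of its own, was 3.98 FPKM in wild type and 2.39 FPKM in knockout-labelled, a log2 ratio of -0.55. The neuregulin receptors ERBB3 and ERBB4 were listed at 0 in both libraries. The 31 ERBB3 events shared their locus with PA2G4, a ubiquitously expressed neighbour with 225 FPKM in wild type and 229 FPKM in knockout-labelled, and every ERBB3 event there was at 0. An exact 0 in such tables can be a failed estimate, so these receptors are described only as listed at 0.

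All 3 TAM receptors, which bind GAS6 and protein S and take part in the uptake of dying cells, were measured. AXL was 9.49 FPKM in wild type and 7.001 FPKM in knockout-labelled, a log2 ratio of -0.39. MERTK was 11.7 and 10.57 FPKM, and TYRO3 was 3.99 and 4.88 FPKM. AXL was thus not the highest TAM receptor in either library. In the knockout-labelled library the AXL events shared a locus with HNRNPUL1 (134 FPKM) and had no listed transcript end, so the AXL value there rests on its start. Of their ligands, PROS1 was 3.17 FPKM in wild type and 2.83 FPKM in knockout-labelled, while GAS6 was 0.112 and 0.102 FPKM.

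Among FGF receptors FGFR4, the main FGF receptor of hepatocytes, was the highest, with 21.7 FPKM in wild type and 24.98 FPKM in knockout-labelled. FGFR3 was 1.27 and 1.56 FPKM. FGFR1 was 0.441 FPKM in wild type and 0 as listed in knockout-labelled, and FGFR2 was listed at 0 in both. In liver FGFR4 acts with the coreceptor KLB and the ligand FGF19. KLB was 0.124 and 0.136 FPKM, FGF19 was listed at 0 in both, and FGF2, a ligand of several FGF receptors, was 2.62 and 2.93 FPKM.

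KDR was the 1 receptor that differed by 2-fold or more. It encodes the main VEGFA receptor of endothelial cells and lies on chromosome 4 from 55078259 to 55125595 (hg38, minus strand). KDR was 1.43 FPKM in wild type and 5.20 FPKM in knockout-labelled, 3.63 times as high, with a log2 ratio of 1.35. Its single start and single end held the same value within each library. Across the 10826 genes measured, 2.87% were higher by 2-fold or more and 3.8% were lower, beside 1 and 0 of the 17 receptors. A log2 ratio as large in size as that of KDR was seen in 4.13% of measured genes.

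The other VEGF and angiopoietin receptors were under 1 FPKM. FLT1 was listed at 0 in wild type and was 0.417 FPKM in knockout-labelled, and TEK was 0.0761 and 0.161 FPKM. FLT4 was 0.0644 FPKM in wild type and 0 as listed in knockout-labelled. Their ligands were higher: VEGFB was 54.3 FPKM in wild type and 48.8 FPKM in knockout-labelled, and VEGFA was 27.3 and 15.2 FPKM, a log2 ratio of -0.81. The coreceptors NRP1 (56.7 and 48.1 FPKM) and NRP2 (12.3 and 12.5 FPKM) were both measured.

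Of 6 endothelial markers 2 were measured, and all 6 together summed to 23.7 FPKM in wild type and 24.7 FPKM in knockout-labelled. Nearly all of it came from ESAM (22.3 and 23.3 FPKM), and PECAM1 was 1.28 and 1.20 FPKM. Of the others, CDH5 was 0.0579 and 0.0316 FPKM, VWF 0.0325 and 0.0167 FPKM, TIE1 listed at 0 and 0.136 FPKM, and CLDN5 was listed at 0 in both. The 8 fibroblast and stellate markers summed to 15.9 FPKM in wild type and 30.6 FPKM in knockout-labelled, with 3 measured. LUM made up most of that sum (14.005 and 27.2 FPKM), while COL1A1, COL1A2, COL3A1, PDGFRB and ACTA2 were under 1 FPKM in both. The part of the fibroblast markers in the KDR difference was not tested. In bulk RNA, fewer cells of a type and less RNA per cell cannot be told apart.

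Eph receptors bind ephrins on neighbouring cells and take part in cell sorting and adhesion. EPHA2, whose main ligand is EFNA1, followed MET in level, with 35.4 FPKM in wild type and 33.4 FPKM in knockout-labelled. EPHB6, whose kinase domain is inactive, was 15.3 and 11.7 FPKM, a log2 ratio of -0.36. EPHB4, the receptor for EFNB2, was 12.7 and 9.59 FPKM, a log2 ratio of -0.37. EPHB3 (9.16 and 8.44 FPKM) and EPHB2 (7.35 and 7.74 FPKM) differed less, so the log2 ratio was below 0 in 4 of the 5 measured Eph receptors and none differed by 2-fold. Of the rest, EPHB1 was 0.0221 and 0.0519 FPKM, EPHA4 was listed at 0 and was 0.0522 FPKM, and EPHA1, EPHA7 and EPHA10 were listed at 0 in both.

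Among ephrins, EFNA1 was 18.1 FPKM in wild type and 9.19 FPKM in knockout-labelled, a log2 ratio of -0.91 that fell short of 2-fold on this scale. EFNA4 (21.6 and 21.3 FPKM) and EFNB1 (14.7 and 14.8 FPKM) were level between the libraries. EFNA3 was 2.55 FPKM in wild type and 0 as listed in knockout-labelled, and EFNB2, the ligand of EPHB4, was 0.024 and 0.0103 FPKM.

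The collagen receptor DDR1 was 24.4 FPKM in wild type and 19.3 FPKM in knockout-labelled, a log2 ratio of -0.33. All 145 DDR1 events in each library lie in rows that name several genes. The level and forms of DDR1 thus rest on the assignment by exon boundaries. Its relative DDR2 was 0.326 and 0.023 FPKM. LMTK2, a membrane-anchored kinase grouped with these receptors although it phosphorylates serine and threonine, was 20.7 and 19.4 FPKM. MUSK, the agrin-dependent receptor of the neuromuscular junction, was at the limit of measurement, whereas its ligand AGRN (54.7 and 56.3 FPKM) and its coreceptor LRP4 (12.3 and 9.16 FPKM) were well above it.

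The remaining receptors were near or at 0. PTK7, a kinase-inactive receptor of Wnt signalling, was 0.148 FPKM in wild type and 0.0883 FPKM in knockout-labelled, and ALK was 0.0083 and 0.0426 FPKM. PDGFRB (0.101 FPKM) and CSF1R (0.014 FPKM) were above 0 in wild type alone. NTRK2 (0.0332 FPKM) and LTK (0.0339 FPKM) were above 0 in knockout-labelled alone. The stem cell factor receptor KIT, PDGFRA, the neurotrophin receptor NTRK3, the GDNF-family receptor RET, ROS1 and INSRR were listed at 0 in both, at every event. PDGFRA shares its locus with FIP1L1 (22.0 and 24.3 FPKM) and ROS1 with GOPC (11.8 and 11.7 FPKM). In all, 12 of the 27 receptors below the limit were listed at 0 in both libraries, 6 were above 0 in both, 4 in wild type alone and 5 in knockout-labelled alone. KITLG, the ligand of KIT, was 33.6 and 43.2 FPKM, and CSF1, the ligand of CSF1R, was 39.5 and 31.7 FPKM.

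The 17 measured receptors differed little between the libraries as a group. In 7 the log2 ratio was above 0 and in 10 it was below 0, with a median of -0.09 beside 0.01 for all measured genes. The median size of the log2 ratio was 0.24 for the receptors and 0.20 for all measured genes. On the log2(FPKM + 1) scale KDR was past 1.5-fold, while 16 of the 17 (94.1%) stayed within it. That count depends on the pseudocount, and on the scaling, since the plain FPKM ratio, knockout-labelled over wild type, was 1.52 for EGFR and 0.601 for ERBB2, and both pass 1.5-fold with a pseudocount of 0.1 (log2 ratios of 0.60 and -0.71) or with TPM scaling (0.61 and -0.62). Of all measured genes 14.6% were past 1.5-fold in either direction on the log2(FPKM + 1) scale. The values of 7 receptors rest on starts and ends that match within 5% in both libraries (MET, TYRO3, MERTK, KDR, EPHB3, EPHB4 and LMTK2). Those of 7 rest on starts alone (EGFR, ERBB2, FGFR3, FGFR4, EPHA2, DDR1 and MUSK). For AXL, EPHB2 and EPHB6 the start and end sums differed in at least 1 library.

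**Figure D3:**
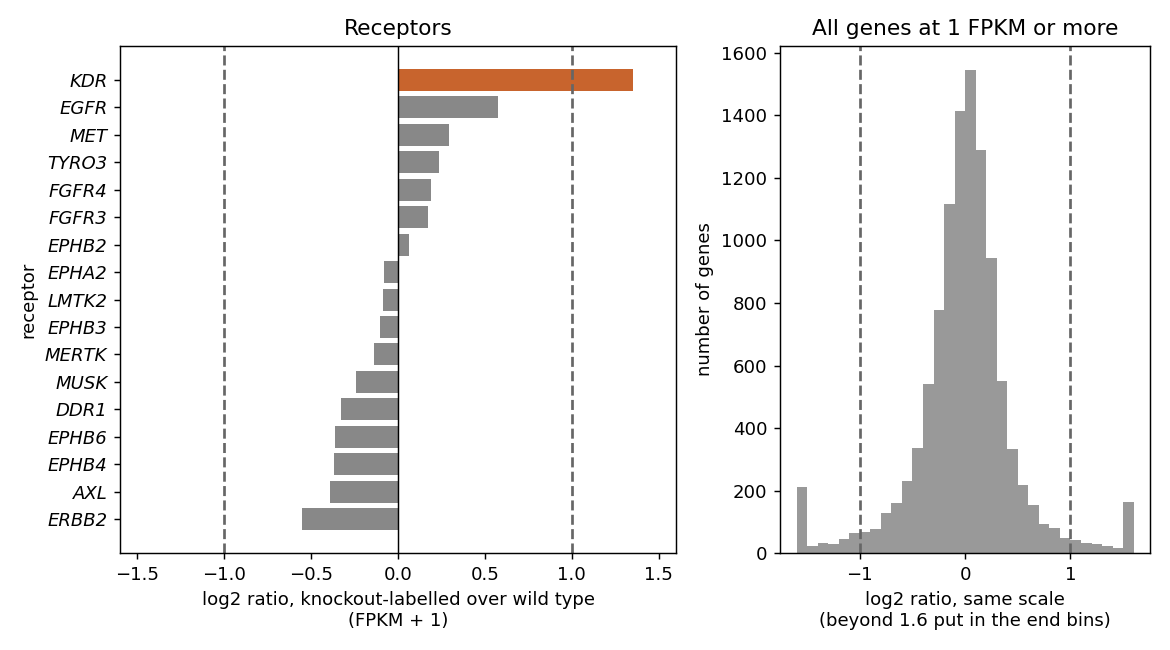
Difference of log2(FPKM + 1), knockout-labelled minus wild type, for each of the 17 measured receptors, with 1 library per genotype and no error bars. KDR (1.35) lies past the 2-fold lines and the others lie between -0.55 and 0.57.

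Ligands of these receptors were compared from a list of 59 genes, of which 21 were measured and 17 were listed at 0 in both libraries. None was higher by 2-fold, and the 1 past the lower limit was EFNA3, for which no fold is given because of its listed 0. The measured ligands split 10 above and 11 below 0 in log2 ratio, with a median of -0.02. The list holds 7 ligands of EGFR, and none of those measured differed by 2-fold. In wild type and knockout-labelled, EREG was 23.5 and 32.3 FPKM, AREG 7.36 and 10.3 FPKM, TGFA 3.95 and 6.21 FPKM, and BTC 1.89 and 3.68 FPKM. EGF was 2.68 and 2.39 FPKM, HBEGF was under 1 FPKM in both, and EPGN was listed at 0 in both. NRG1, a ligand of ERBB3 and ERBB4, was 36.7 and 29.95 FPKM although both receptors were listed at 0.

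Signalling genes downstream were broadly expressed. Of 26 adaptors and kinases 24 were measured, 8 above and 16 below 0 in log2 ratio with a median of -0.04, and none differed by 2-fold. The highest were the adaptors SHC1 (98.9 and 84.3 FPKM) and GRB2 (95.9 and 91.0 FPKM), the MAP kinase kinase MAP2K2 (80.9 and 92.8 FPKM) and the phosphatase PTPN11 (60.4 and 58.3 FPKM). Of 22 negative regulators 19 were measured, 9 above and 10 below 0 with a median of -0.01, and none differed by 2-fold. Among these the highest were ERRFI1, an inhibitor of EGFR (84.7 and 70.4 FPKM), the MAP kinase phosphatase DUSP6 (37.9 and 31.3 FPKM), the tyrosine phosphatase PTPN1 (29.8 and 41.4 FPKM) and SPRED2 (25.2 and 23.1 FPKM). Of 10 coreceptors 4 were measured and none differed by 2-fold. CD44, a coreceptor of MET, had the highest level of the 4, with 57.7 FPKM in wild type and 84.9 FPKM in knockout-labelled.

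**Figure D4:**
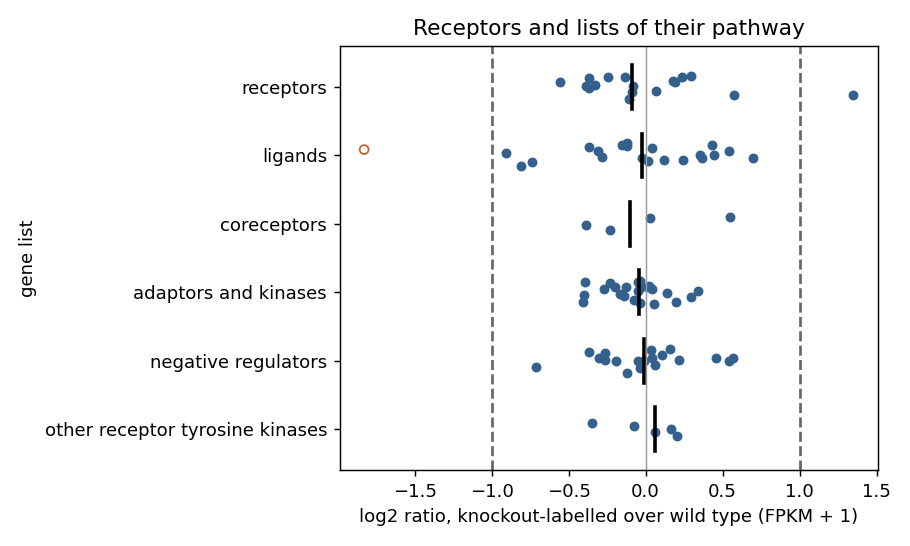
Difference of log2(FPKM + 1), knockout-labelled minus wild type, for the measured receptors and the measured genes of the lists of ligands, coreceptors, adaptors and kinases, negative regulators and other receptor tyrosine kinases, 1 point per gene, with the list's median as a bar and the 2-fold limits as dashed lines. The medians of these groups lie between -0.10 and 0.06, and past the limits lie KDR on the right and, as an open circle on the left, EFNA3, which is listed at 0 in knockout-labelled.

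Alternative forms were read from pairs of events, in which a form with an exon or intron is set against the form without it. Of 194 pairs listed for the receptors, 38 from 12 receptors reached 1 FPKM over both forms in each library. In 33 of these a single form carried the whole value in both libraries, 21 with the exon or intron always in and 12 with it never in. The other 5 pairs, from AXL, DDR1, EPHA2 and EPHB6, had a minor form of at least 10%. That is 13.2% of the pairs of receptors, beside 17.5% of the 23603 pairs of all genes. In 4 of the 5 the share with the exon differed by 10 percentage points or more. Across all genes 12.2% of pairs did so, and among the 4134 pairs with a minor form 67.1% did. The shares have no interval, since counts are unknown.

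The exons below are those whose inclusion the next paragraphs describe: 3 coding exons that varied (AXL, DDR1 and EPHA2) and 2 whose skipping is known in tumours (MET and ERBB2). Sequences are from GENCODE 29 transcripts on hg38, in the sense direction of the gene. Capitals mark the exon at the given coordinates, and lower case marks 15 bases of each neighbouring exon.
AXL exon 10 of 20, chr19:41239694-41239720, plus strand: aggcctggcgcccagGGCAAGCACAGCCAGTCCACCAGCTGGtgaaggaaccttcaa
DDR1 exon 11 of 17, chr6:30895404-30895514, plus strand: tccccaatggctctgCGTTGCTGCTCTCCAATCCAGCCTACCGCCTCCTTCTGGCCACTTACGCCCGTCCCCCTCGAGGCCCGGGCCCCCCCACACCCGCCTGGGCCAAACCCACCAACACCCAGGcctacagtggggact
EPHA2 exon 2 of 17, chr1:16150896-16150963, minus strand: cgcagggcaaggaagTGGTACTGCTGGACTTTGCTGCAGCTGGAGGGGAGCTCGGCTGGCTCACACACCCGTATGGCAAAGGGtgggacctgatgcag
MET exon 14 of 21, chr7:116771849-116771989, plus strand: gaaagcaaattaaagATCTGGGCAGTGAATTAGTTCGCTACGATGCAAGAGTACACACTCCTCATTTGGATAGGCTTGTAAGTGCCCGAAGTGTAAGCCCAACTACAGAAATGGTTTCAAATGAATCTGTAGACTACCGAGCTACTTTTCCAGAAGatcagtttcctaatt
ERBB2 exon 16 of 27, chr17:39719787-39719834, plus strand: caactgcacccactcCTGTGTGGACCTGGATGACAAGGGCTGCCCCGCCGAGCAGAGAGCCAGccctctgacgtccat

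Among the exon and intron pairs compared in the receptors, AXL showed the largest difference in share. Its exon 10 has 27 bases, which is 9 whole codons, and encodes part of the extracellular side of the protein, near the membrane. The form with the exon was 3.85 FPKM in wild type and 5.58 FPKM in knockout-labelled, whereas the form without it was 5.64 and 1.42 FPKM. The share with the exon was therefore 40.6% in wild type and 79.7% in knockout-labelled, 39.1 points higher. The longer form was the minor form in wild type and the major form in knockout-labelled. A difference of that size was seen in 14.7% of all pairs with a minor form, whose median difference was 16.7 points. AXL was listed differently in each library. In knockout-labelled alone its events shared a locus with HNRNPUL1 and had no transcript end. Its listed start on chromosome 19 was 41219203 there and 41218959 in wild type. The part of this unlike listing in the difference in share was not tested.

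DDR1 was spread over several forms. Its exon 11 has 111 bases (37 codons) and marks the form known as DDR1b, while DDR1a lacks it. The form with it was 12.5 FPKM in wild type and 8.10 FPKM in knockout-labelled, and the form without it was 11.98 and 11.2 FPKM. The share with the exon was 51.0% in wild type and 42.1% in knockout-labelled, so both forms were present at similar levels in both libraries. The start at 30884069 of chromosome 6 carried the same FPKM as the form without exon 11 in each library, and the start at 30884353 carried the same FPKM as the form with it. An upstream exon of 56 bases that is not coding in the annotation was included at 51.0% in wild type and 65.9% in knockout-labelled.

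EPHA2 exon 2 has 68 bases, which is not a multiple of 3, so the form without it shifts the reading frame. In wild type 89.1% of the value carried the exon, 31.5 FPKM with it and 3.85 FPKM without it, and in knockout-labelled the share was 100%. The fifth pair was an exon of 117 bases in EPHB6, exon 3 of 20 and not coding in the annotation. Its share was 45.7% in wild type (7.003 FPKM with it and 8.31 FPKM without it) and 31.0% in knockout-labelled (2.85 and 6.33 FPKM).

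MET, the most abundant receptor, showed a single form at every exon compared. Exon 14 has 141 bases (47 codons), encodes the juxtamembrane stretch through which the ubiquitin ligase CBL acts on MET, and was in 100% of the value in both libraries. MET exon 10 is annotated in a shorter and a longer version that differ by 54 bases (18 codons). The shorter version carried the full MET value and the longer was at 0 in both libraries. ERBB2 exon 16, of 48 bases (16 codons), and EGFR exon 4, of 135 bases, were likewise in 100% of the value in both. No exon with alternative ends had more than 1 version above 0, over 38 versions listed in 9 receptors.

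**Figure D5:**
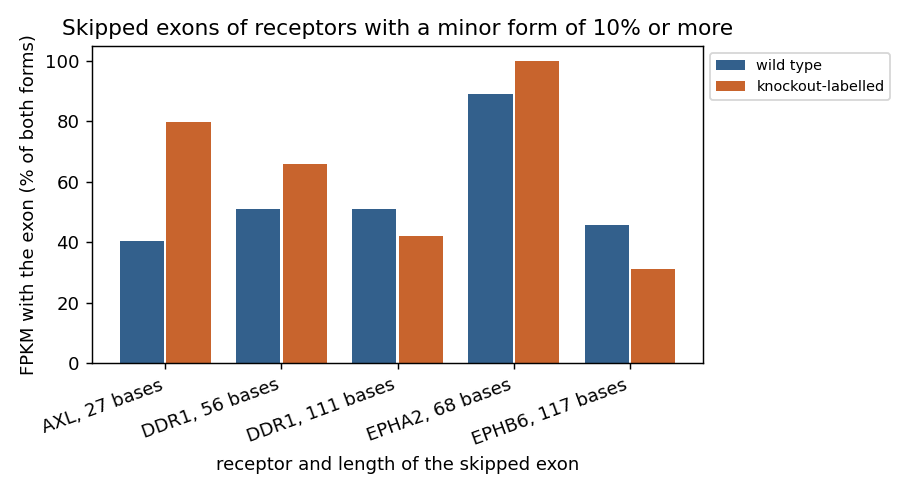
Share of FPKM from the form with the exon (percent) in the wild-type and knockout-labelled libraries for the 5 exons with a minor form of at least 10%, 1 bar per library and no error bars. AXL exon 10 goes from 40.6% to 79.7%, the widest gap of the 5, but AXL shared its locus with HNRNPUL1 in knockout-labelled alone.

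Some receptors also had more than 1 listed start. FGFR4 had a pair in both libraries, with first exons at 177086886 to 177087077 and 177086905 to 177087033 of chromosome 5. These exons overlap and also end at different bases, so the pair differs in the splice site as well as the start. The start at 177086886 gave 66.4% of the FGFR4 value in wild type and 74.0% in knockout-labelled. FGFR3 had its main start at 1793307 of chromosome 4, with 65.2% in wild type and 85.1% in knockout-labelled, and the second start was a different one in each library. EPHB6 had a single start in wild type and a second one, with 21.4% of the value, in knockout-labelled. MUSK had no start in common between the libraries: wild type listed 110728273 of chromosome 9 alone, and knockout-labelled listed 110761993 (83.6%) and 110668771 (16.4%). Its values of 1.25 and 0.905 FPKM thus come from different listed transcripts. The remaining measured receptors had no second start with 10% or more of the value other than DDR1.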

How the data were processed

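The authors deposited a table for each library that holds, per the file headers, the FPKM of every start, end and splicing event. Libraries were made from poly-A RNA with 12 cycles of PCR and sequenced, per the labels' protocols, for 100 bases from both ends. The genome hg38 and the tool Bowtie 0.12.2 are named, per the submitters' processing notes, with no role stated. Which program listed the events, on which annotation and whether by strand is not given in the sources used here. Antisense or overlapping genes may share reads. Events in loci of several genes were assigned by GENCODE 29 exon boundaries, at which 98.3% of start and end junctions lay in both libraries. The unassigned share was 2.51% of the events in wild type and 2.48% in knockout-labelled. Start and end sums matched within 5% in 52.9% of the genes with a start or end above 0 in each library. A level may thus be understated where an event is missing.

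The FPKM values carry no counts, so precision is unknown. A gene was called at 2-fold or more on log2(FPKM + 1), by size alone, with 1 library per genotype. Pairs of forms were compared at 1 FPKM over both forms in each library. The members and lists were chosen with earlier results of these data known. All 44 members are accounted for. Of the lists, members at 2-fold and up to 4 with the highest level were to be named, and the ligands and coreceptors of the receptors described were added after their values were seen. The adaptor list member NRAS had no assigned event. Python 3.11.15, numpy 2.4.6, pandas 2.3.3 and matplotlib 3.10.9 were used, and the procedure was tested on simulated data. Alternatives were other pseudocounts, minimum levels, fold thresholds and scalings, starts alone, ends alone, multi-gene rows left out, and, added after seeing the data, genes whose start and end sums match.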

Additional observations from a re-analysis of the deposited data

How the results depend on the processing

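Counts were compared with a tolerance of 1.5 times, the median with one of 0.1 in log2, and single log2 ratios by their sign and their side of 2-fold. Within these limits 45 of 50 comparisons of the counts and the median held. So did 108 of 111 log2 ratios of single receptors, and 0 reversed. Many of these could not change, so the tally is no measure of robustness. The start sum was at least the end sum in every measured receptor, so starts alone repeated the reported values. Leaving out multi-gene rows alters only receptors in such rows. The 7 receptors that rest on starts alone have no ratio with ends alone. Moves inside the limits could be sizeable: with a minimum of 5 FPKM 13 receptors counted as expressed, and with ends alone EPHB2 was at 0.60 (0.06 as reported). That EPHB2 value rests on an end sum of 0 in wild type and 0.511 FPKM in knockout-labelled, both under 1 FPKM. For EGFR and ERBB2 the side of 1.5-fold depends on the pseudocount and the scaling. With ends alone 9 receptors counted as expressed (17 as reported) and 2 were lower by 2-fold (0 as reported): AXL at -3.39 and EPHB6 at -1.36. With multi-gene rows left out 1 was lower, AXL, again at -3.39, and DDR1 had no value because all its events lie in such rows. Both AXL values come from the construction of the alternative, since AXL has no listed end and shares its locus rows in the knockout-labelled library. The EPHB6 value rests on end sums of 15.3 FPKM in wild type and 5.34 FPKM in knockout-labelled. The EPHB6 start sum in knockout-labelled was 11.7 FPKM. With no minimum level 32 receptors counted as expressed, and with start and end sums within 5%, an alternative chosen after seeing the data, 7 did. The median log2 ratio ranged from -0.11 to -0.05 over 12 settings, and that of KDR from 1.34 to 1.79, MET from 0.29 to 0.32 and EGFR from 0.57 to 0.61. No paired analysis was possible because each genotype has 1 library. Without counts or replicates, neither counting error nor the spread between cultures is known.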

Other observations

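Receptor tyrosine kinases outside the 44 were read from a list of 14, of which 5 were measured, none differing by 2-fold. RYK, a Wnt receptor, was the highest, with 22.7 FPKM in wild type and 21.4 FPKM in knockout-labelled. ROR1, which also binds Wnt ligands, was 9.03 and 10.2 FPKM, while its relative ROR2 was listed at 0 in both. IGF1R and INSR, the receptors of IGF1 and insulin, were 9.37 and 7.14 FPKM, and 3.75 and 3.95 FPKM. Each was far below MET. ADAM10 and ADAM17, proteases that release receptor ligands and receptor ectodomains from the cell surface, were 29.2 and 29.4 FPKM, and 7.74 and 6.10 FPKM. SH2B3, an adaptor that restrains receptor signalling, had the lowest log2 ratio of the measured negative regulators (-0.71, from 13.0 to 7.53 FPKM).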
